A study of Mus musculus with 12 samples.

Results

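The 4 libraries described here cover the first step of meiotic resumption in wild-type (WT) mouse oocytes. They are the 2 libraries labelled WT GV, from oocytes arrested at the germinal vesicle stage, and the 2 labelled WT GVBD, from oocytes at germinal vesicle breakdown, out of 12 libraries in all. The series also holds WT oocytes at metaphase II (MII) and *Alkbh5* knockout (KO) oocytes at the same 3 stages, 2 libraries each. Oocytes came from C57BL/6 females aged 3 weeks that had received 10 IU PMSG, a gonadotropin that stimulates follicle growth. WT females carried no engineered allele, and KO females lacked exon 1 of *Alkbh5* in every cell. According to the methods, oocytes were held at prophase with milrinone and then released, and stage was set by time in culture, 0 h for GV, 4 h for GVBD and 16 h for MII. Each library was a pool of zona-free oocytes, 10 according to the methods and 20 according to a figure legend. The methods describe oligo(dT)-primed, full-length amplified cDNA with ERCC spike-in RNA, whereas the sample descriptions give a bulk extraction, so the protocol is not settled. Where priming was by oligo(dT), a change in mRNA copies and a change in poly(A) tail length cannot be told apart. As in all bulk samples, fewer cells of a type and less RNA per cell cannot be told apart either. With 2 pools per group, p-values measure only the spread between those pools.

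In arrested oocytes, cAMP made through a constitutively active receptor keeps protein kinase A on and CDK1 off. When cAMP falls, CDC25B overcomes the WEE2 block, CDK1 with cyclin B becomes active, the nuclear envelope breaks down and the chromosomes condense. The growing oocyte has by then ended most transcription, so that resumption runs on stored mRNAs, which are translated, tailed with poly(A) or deadenylated and degraded on a schedule.

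Total counts lay between 28627380 and 36067277 in these 4 libraries and between 28557742 and 40247810 in all 12. All 15 oocyte defining markers, among them *Dppa3*, *Oosp1* and *Npm2*, were detected in every library, and their summed scaled counts lay between 736161 and 1045077 in these 4. A scaled count is the deposited count divided by a factor proportional to the library's ERCC counts, so that it follows the amount of mRNA per pool. *Alkbh5*, the targeted gene, had scaled counts of 5927 and 7934 in WT GV and 12736 and 4489 in WT GVBD, against 82.8 to 243 in the 4 KO libraries of these stages. Replicates correlated at r = 0.909 for WT GV and 0.927 for WT GVBD over 13656 genes. The median gene was 0.58 log2 units higher in WT GVBD 1 than in WT GVBD 2, and the differences between stages below include this gap.

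For the stored pool as a whole, no difference was detectable beyond the spread of the pools. Endogenous counts per ERCC count were 102 ± 4.24 (SD, n = 2) in WT GV and 93.9 ± 26.3 (n = 2) in WT GVBD, a ratio of 0.921 (exact permutation test over the 6 arrangements, two-sided, p = 1, where the smallest p these numbers allow is 0.333). WT GVBD 1 stood at 112.4 and WT GVBD 2 at 75.3, on either side of both WT GV libraries at 104.9 and 98.9. Without WT GVBD 2 the ratio was 1.1, and without WT GVBD 1 it was 0.739. Across 19566 tested genes the median log2 fold change was 0.01, and 0.06 with TMM scaling, which assumes that most genes keep their level.

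Few genes passed the test at this step. By edgeR with Benjamini-Hochberg adjustment and an absolute log2 fold change of at least 1, 8 genes (0.0409% of those tested) rose from WT GV to WT GVBD and 2 (0.0102%) fell. The same counts in DESeq2 gave 115 higher genes (0.588%) and 256 lower genes (1.31%), and all 10 edgeR genes were among them. At an unadjusted edgeR p under 0.05, 367 genes (1.88%) were higher and 856 (4.37%) lower. Scaled counts of the stages did not overlap for 2214 genes with both GVBD libraries above both GV libraries (11.3%) and for 3768 with both below (19.3%). The edgeR count rested on having both GVBD libraries, since it was 0 without WT GVBD 1 and 0 without WT GVBD 2, where 141 and 1778 genes were higher and 2020 and 856 lower at an unadjusted p under 0.05 and DESeq2 called 667 and 628. It was 265 without WT GV 1 and 629 without WT GV 2, and TMM scaling kept 3 of the 10, *Fut10*, *Gm35818* and *Bcl2a1b*. Genes called by DESeq2 are described below as higher or lower by DESeq2, and of these only the 10 edgeR genes passed the edgeR test. List counts below are to be set against the shares of all tested genes. These were 1.31% lower and 0.588% higher by DESeq2, and 4.37% lower and 1.88% higher at an unadjusted edgeR p under 0.05.

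**Figure D1:**
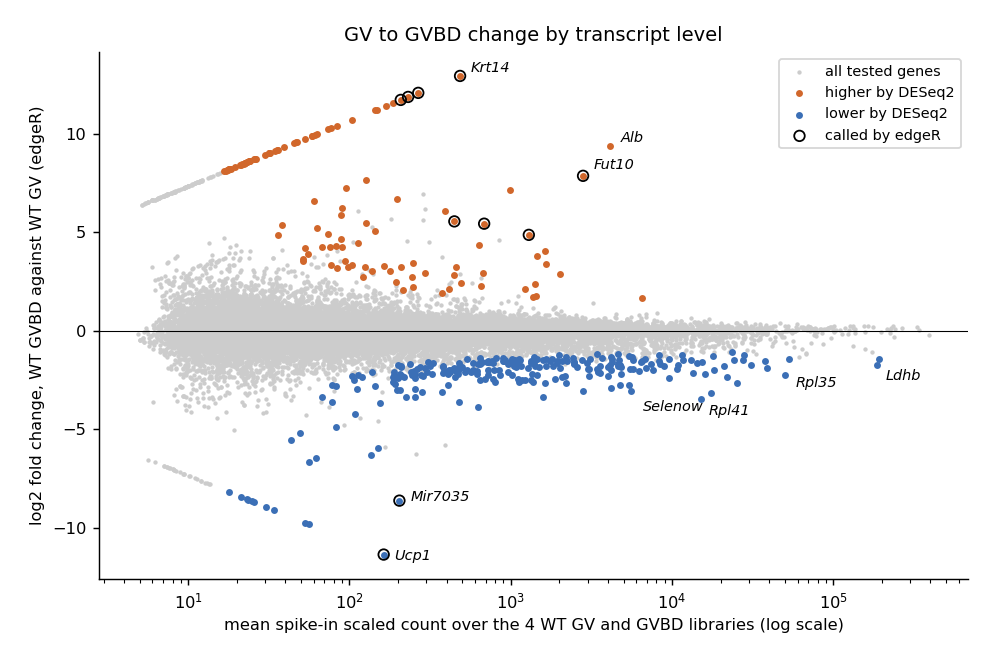
Log2 fold change of WT GVBD against WT GV (edgeR) over the mean spike-in scaled count of the 4 libraries on a log axis, 1 point per tested gene, with the 115 genes higher and 256 lower by DESeq2 coloured and the 10 edgeR genes ringed. The straight rows of points at the upper and lower left are genes at or near 0 counts in 1 stage, and abundant transcripts such as *Ldhb* and *Rpl35* stand only on the lower side.

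*Fut10* had the lowest unadjusted p of all genes tested. *Fut10* (ENSMUSG00000046152, GRCm38 chromosome 8, 31187331 to 31261738, plus strand) encodes a member of the fucosyltransferase family of Golgi and endoplasmic reticulum enzymes. Scaled counts of 18.8 and 34.2 at WT GV were followed by 8126 and 4256 at WT GVBD. The level rose 234-fold, with a log2 fold change of 7.87 ± 0.63 (SE, adjusted p = 0.0289 by edgeR). It stood at 8193 and 4555 in WT MII, next to its GVBD level. In KO oocytes the gene read 59.4 and 7.14 at GV and 24.5 and 14.4 at GVBD, so that no KO library of either stage came near the WT GVBD libraries. The WT change exceeded the KO change by 8.61 log2 units, at an adjusted p of 0.0677 for that difference by edgeR.

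Beside *Fut10*, the genes that rose were 3 long noncoding RNAs, a BCL2 family gene and 3 keratins. *Gm35818* (chromosome 12, 54091430 to 54106885, minus strand), annotated only as a long intergenic noncoding RNA, read 37.6 and 30.3 before and 1531 and 1433 after breakdown, a 43.7-fold rise (log2 5.44 ± 0.48, adjusted p = 0.0289 by edgeR). Its GVBD libraries were the closest to each other among the 8 genes that rose. WT MII libraries read 315 and 539. In KO the libraries of each stage lay far apart, at 963 and 19 in GV, 27.6 and 475 in GVBD and 1024 and 0 in MII. *Gm20758* (chromosome 10, 111854521 to 111874376, minus strand) had no counts in either WT GV library and read 610 and 313 after breakdown. Against a floor of 3 counts for the GV group, it was at least 127-fold higher. KO GV oocytes held it already, at 340 and 248, and KO GVBD libraries read 9.2 and 339.

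*AW112010* (chromosome 19, 11047612 to 11055808, minus strand), a transcript known from innate immune cells, went from 116 and 72.4 to 3724 and 1818 (29.4-fold, log2 4.87 ± 0.56, adjusted p = 0.0485 by edgeR). *Bcl2a1b* (chromosome 9, 89199209 to 89207827, plus strand), an anti-apoptotic BCL2 relative expressed in blood cells, went from 19.9 and 21 to 1240 and 700 (47.3-fold, log2 5.56 ± 0.56, adjusted p = 0.033 by edgeR). *Bcl2a1b* has near-identical copies, and the values of each copy are uncertain where reads could be shared. Another copy, *Bcl2a1d*, read 7.75 and 0 in WT GV and 558 and 304 in WT GVBD and was higher by DESeq2 (adjusted p = 0.119 by edgeR). WT MII libraries held 211 and 34.6 for *AW112010* and 119 and 11.7 for *Bcl2a1b*, below both GVBD libraries, which that comparison shares.

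*Krt14*, *Krt5* and *Krt1* encode keratins of the skin's epidermis, *Krt14* and *Krt5* of its basal layer and *Krt1* of the layers above. None of the 3 had a count in WT GV, in WT MII or in any KO library of GV or GVBD. In WT GVBD *Krt14* (chromosome 11, 100203162 to 100207548, minus strand) read 1599 and 550, *Krt5* (chromosome 15, 101707070 to 101712898, minus strand) 826 and 359, and *Krt1* (chromosome 15, 101845426 to 101850794, minus strand) 607 and 419. Against the same floor, *Krt14* was at least 296-fold, *Krt5* at least 163-fold and *Krt1* at least 141-fold higher. The list of 22 keratinocyte markers, which includes these 3, is given beside them. Its summed scaled counts were 1499 and 1540 in WT GV and 6606 and 4034 in WT GVBD, with 12 and 11 members detected before and 21 and 22 after, against 1471 to 2233 in the 4 KO libraries. The part of skin RNA in these 3 results was not tested.

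*Ucp1* and *Mir7035* fell. *Ucp1* (chromosome 8, 83290352 to 83298452, plus strand), the uncoupling protein of brown fat, had scaled counts of 344 and 376 in WT GV and no counts in WT GVBD, at least 116-fold lower. It read 0 and 827 in WT MII, 1330 and 390 in KO GV and 0 and 902 in KO GVBD, so that 1 library of each of the groups WT MII and KO GVBD also lacked it. *Mir7035* (chromosome 5, 136105522 to 136105603, plus strand) is the hairpin of a microRNA. It read 574 and 328 in WT GV and 1.25 and 0.826 in WT GVBD, which is 1 count in each. The ratio of the pooled scaled counts, 768 counts at GV over 2 at GVBD, was 464, with an exact 95% interval of 128 to 3835 that covers counting error only (log2 −8.63 ± 0.79, adjusted p = 0.0289 by edgeR).

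*Mir7035* was the only member of the 10 with a mature microRNA, and both arms are shown because they name what its locus encodes. They are RefSeq sequences (GRCm38.p6), 5′ to 3′, with the seed, bases 2 to 8, in capitals, at chr5:136105527-136105547 and chr5:136105583-136105603, plus strand.
mmu-miR-7035-5p: gGCUGGGAgaguggcucagaa
mmu-miR-7035-3p: uCUGAGCCgcugucccugcag
The seeds of the arms differ. Libraries primed on poly(A) tails, as the methods describe, do not measure mature microRNAs. With such priming, counts on this locus come from longer RNA. The hairpin lies within *Rasa4* (chromosome 5, 136083916 to 136111860, plus strand), a Ras GTPase-activating protein gene, inside an exon of a transcript annotated as a retained intron. *Rasa4*, named here for that overlap after its values were seen, read 20576 and 17642 in WT GV and 6162 and 7433 in WT GVBD and was lower by DESeq2 (log2 −1.49 ± 0.34, adjusted p = 0.265 by edgeR). In KO oocytes *Rasa4* read 19407 and 18785 at GV and 21846 and 16159 at GVBD. *Mir7035* itself read 141 and 154 in KO GV and 147 and 174 in KO GVBD. At MII it read 0.744 and 19.8 in WT and 190 and 0.668 in KO, so that a KO MII library also stood near 0.

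**Figure D2:**
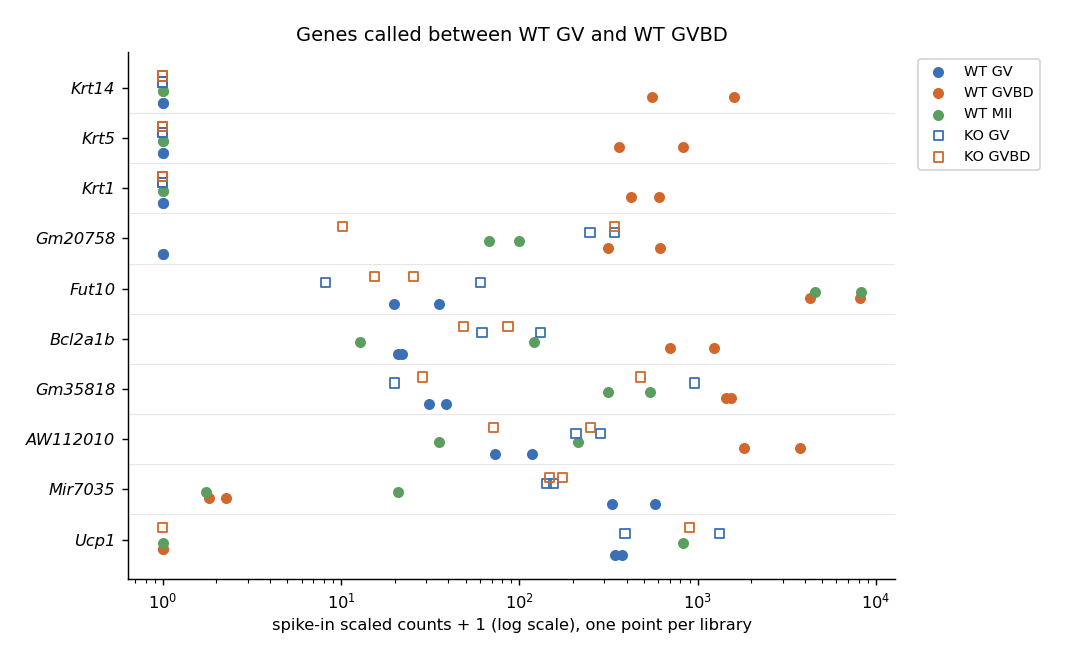
Spike-in scaled counts plus 1 on a log axis for the 10 genes called by edgeR, 1 point per library, filled circles for WT at GV, GVBD and MII and open squares for KO at GV and GVBD. The WT GV and WT GVBD points do not overlap in any of the 10 rows, only *Fut10* stays at its GVBD level in MII, and none of the 10 has both KO GVBD squares at the WT GVBD level.

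DESeq2 added the genes with the largest changes on either side that passed its threshold and were at least as abundant as the median gene. On the higher side the 10 genes so chosen were *Krt14*, *Krt5*, *Krt1*, *Fut10*, *Bcl2a1d* and 5 more. *Krt16* and *Krt6b*, keratins of stressed epidermis, had no counts in WT GV and read 667 and 164, and 650 and 97.5, in WT GVBD. *Tnfrsf4*, the T cell costimulatory receptor OX40, read 22.1 and 7.89 in WT GV and 3571 and 786 in WT GVBD. *Acta1*, skeletal muscle actin, read 4.43 and 21 and then 1118 and 596. *Alb*, serum albumin of the liver, read 8.85 and 18.4 and then 18086 and 62.8, so that its high level is that of WT GVBD 1. None of these 5 passed the edgeR test (adjusted p between 0.0959 and 0.293).

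Among the 115 genes higher by DESeq2, 56 held at most 3 counts in 1 stage, so that they passed the filter on low counts through the other stage and had to differ. Of the 115, 103 (89.6%) read higher in WT GVBD 1 than in WT GVBD 2, as did 76.3% of all tested genes. Of the 76 that could be tested in KO, 65 (85.5%) went lower from KO GV to KO GVBD, against 60% of the genes tested in both, with a median log2 fold change of −0.67 where that of the latter was −0.14. KO GVBD libraries lay above both KO GV libraries for 2 of the 115 (1.74%), against 12.1% of all tested genes. Without WT GVBD 1, DESeq2 gave an adjusted p to only 8764 genes, against 19566 with all 4 libraries. Genes without an adjusted p could not be called there. Left without WT GVBD 1, DESeq2 called 19 genes higher, 13 of them among the 115, and without WT GV 1 it called 77, 50 of them shared. It called 253 without WT GV 2 and 320 without WT GVBD 2, of which 62 and 83 were shared.

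On the lower side the 10 genes chosen by the same rule were *Ucp1*, *Mir7035* and 8 genes with counts in all 4 libraries. *Selenow*, a small selenoprotein, read 48930 and 20511 in WT GV and 4114 and 3780 in WT GVBD, 8.8-fold lower (log2 −3.14 ± 0.48, adjusted p by edgeR 0.119). It stayed at 4525 and 3200 in WT MII. *Rpl41*, which encodes the shortest protein of the large ribosomal subunit, read 49322 and 12154 and then 3566 and 1954 (log2 −3.48 ± 0.69, adjusted p = 0.19 by edgeR). *Rapsn*, the synaptic scaffold rapsyn, read 937 and 555 and then 113 and 59.5 (log2 −3.12 ± 0.55, adjusted p = 0.155 by edgeR). *Mrps36-ps1* and *Ftl2-ps* are processed pseudogenes of a mitochondrial ribosomal protein and of ferritin light chain, and their reads could be split with their parent genes. They read 4287 and 2107, and 742 and 292, in WT GV and 400 and 228, and 68.8 and 30.6, in WT GVBD. Unlike *Selenow*, *Rpl41* (13987 and 11547), *Rapsn* (176 and 134), *Mrps36-ps1* (1751 and 1363) and *Ftl2-ps* (342 and 291) stood above both GVBD libraries in WT MII. That comparison shares the GVBD libraries.

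The 3 others had an uneven GV group. *Batf3*, a transcription factor of dendritic cells, read 464 and 172 and then 8.76 and 39.7. *Kctd3* read 1855 and 107 and then 80.1 and 81.8, and *Phf1*, a Polycomb-associated protein gene, read 851 and 56.6 and then 35 and 52. For the last 2, WT GV 2 lay close to the GVBD libraries and WT GV 1 far above. This held beyond them, since 218 of the 256 genes lower by DESeq2 (85.2%) read higher in WT GV 1 than in WT GV 2, compared with 48.3% of all tested genes, with a median gap of 0.53 log2 units. Without WT GV 1 DESeq2 called 39 genes lower, 28 of them among the 256, and without WT GVBD 1 it called 648, 220 of them shared. It called 126 without WT GV 2 and 308 without WT GVBD 2, of which 108 and 208 were shared.

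The 256 genes lower by DESeq2 had a median scaled count of 1034, compared with 88.7 for the higher ones and 152 for all tested genes. Their median log2 fold change was −1.93 (−1.87 with TMM scaling). Of 249 tested in KO, 200 (80.3%) went lower from KO GV to KO GVBD, against 60% of all genes tested in both. Their median there was −0.29, against −0.14. The genes higher in WT mostly went lower in KO as well, at 85.5% and a median of −0.67. KO GVBD libraries lay below both KO GV libraries for 35.2% of the 256 and for 27.7% of all tested genes. Of the 256, 41 came from the cytosolic ribosomal proteins, the nuclear oxidative phosphorylation genes, the mitochondrial ribosomal proteins, the proteasome and RNA polymerase II with its cofactors, a share of 16% where these lists hold 1.89% of all tested genes. Of the 23 pathway lists these held the most genes lower by DESeq2. The contrast was thus set in part by that choice and is not a test of enrichment.

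Of the 85 cytosolic ribosomal protein genes, 15 were lower by DESeq2 and 1 higher, with a median log2 fold change over the list of −0.42. None passed the edgeR test, and 23 were lower and 1 higher at an unadjusted p under 0.05. Both GVBD libraries lay below both GV libraries for 40 of the 85 (47.1%) and above them for 5 (5.88%). Of all tested genes, 1.31% were lower by DESeq2 and 4.37% at an unadjusted edgeR p under 0.05. Without overlap, 19.3% of all were lower and 11.3% higher. *Rpl35*, the most abundant of the list, read 96699 and 85980 in WT GV and 21985 and 16921 in WT GVBD, 4.7-fold lower (log2 −2.23 ± 0.33, adjusted p = 0.11 by edgeR). *Rpl37* read 59958 and 37108 and then 9777 and 5601 (log2 −2.66 ± 0.44). *Rps15* read 14927 and 6008 and then 1755 and 1391 (log2 −2.73 ± 0.51). *Rplp0*, *Rpl7a*, *Rpl18*, *Rpl19*, *Rpl10*, *Rpl28*, *Rpl37a*, *Rps9* and *Rps19* were also among the 15, as was *Rpl41*, and the log2 fold changes of the first 9 ranged from −2.60 (*Rpl7a*) to −1.21 (*Rpl19*).

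The list did not move as a block. *Rpl5*, at 50358 and 46519 in WT GV, read 56136 and 41525 in WT GVBD. *Rpl26* read 40807 and 41033 and then 57821 and 33933, and *Rpl39* 44061 and 35151 and then 40630 and 31351, so that for each of the 3 the stages overlapped. *Rpl9* was the member higher by DESeq2, at 576 and 858 and then 3380 and 1313. MII levels, whose comparison with GVBD shares the GVBD libraries, are given beside these. *Rpl26* read 876 and 757 in WT MII and *Rpl5* 3413 and 2537, while *Rpl35* read 12619 and 9497.

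Ribosomal protein mRNAs are known for a run of pyrimidines that begins with a cytosine at the transcription start and lets mTOR signalling control their translation. The 4 most abundant lower members with such a run beginning within 5 bases of the annotated start are shown to make the element visible. They are 30 bases around the start from the RefSeq promoter table (GRCm38.p6), 5′ to 3′ on the coding strand, with the run in capitals. In *Rpl19* the run lies wholly before the annotated start. They lie at chr2:39005117-39005146 (minus), chr11:98026695-98026724 (plus), chr7:4792950-4792979 (plus) and chr7:3704026-3704055 (plus).
Rpl35: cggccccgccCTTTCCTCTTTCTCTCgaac
Rpl19: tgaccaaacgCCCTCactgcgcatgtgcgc
Rpl28: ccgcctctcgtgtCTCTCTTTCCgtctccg
Rps9: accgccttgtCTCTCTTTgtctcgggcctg
The search took a C followed by at least 4 bases that were each C or T, on the coding strand only and beginning within 5 bases of the start. It was met by 6 of the 13 lower members in the table (46.2%) and by 17 of 50 members not called (34%). Of all 27025 promoters, 12.7% held it, as did 12.3% of the lower genes outside this list. A match is a description of these letters and not a mapped start site.

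Of 81 nuclear oxidative phosphorylation genes tested, 15 were lower by DESeq2 and none higher, and the median was −0.31. The edgeR test called none, with 20 lower and none higher at an unadjusted p under 0.05, where 4.37% of all tested genes were lower. Both GVBD libraries lay below both GV libraries for 35 (43.2%), against 19.3% of all tested genes. The lower members came from complexes I, III, IV and V of the respiratory chain. *Cox6c* of complex IV read 69407 and 53501 in WT GV and 25261 and 17579 in WT GVBD (log2 −1.52 ± 0.35). *Atp5k* of the ATP synthase read 59042 and 47009 and then 18491 and 12945 (log2 −1.75 ± 0.36). *Uqcr10* of complex III read 13856 and 10341 and then 3914 and 2552 (log2 −1.90 ± 0.40). *Ndufa11* of complex I read 8909 and 2110 and then 923 and 406, the largest change among the 15 (log2 −3.05 ± 0.73, adjusted p = 0.28 by edgeR), again with WT GV 1 far above WT GV 2. *Atp5j2*, the most abundant member, read 122932 and 111390 and then 83032 and 66126 and was not called.

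Mitochondrial ribosomal proteins contributed *Mrps7*, *Mrpl23*, *Mrps17*, *Mrpl55* and *Mrps5*, 5 lower genes of 77, at a list median of −0.15. *Mrpl23* read 7800 and 7790 in WT GV and 2931 and 1926 in WT GVBD. The most abundant member, *Mrps33*, read 87077 and 87397 and then 110920 and 54247. By edgeR none of the 77 was called, with 13 lower and 1 higher at an unadjusted p under 0.05. Of all tested genes, 1.31% were lower by DESeq2, and 4.37% were lower and 1.88% higher at that p. The 13 mRNAs encoded by the mitochondrial genome itself, such as *mt-Cytb* at 48456 and 72754 and then 66929 and 30478, held no call by either tool and none at an unadjusted p under 0.05.

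**Figure D3:**
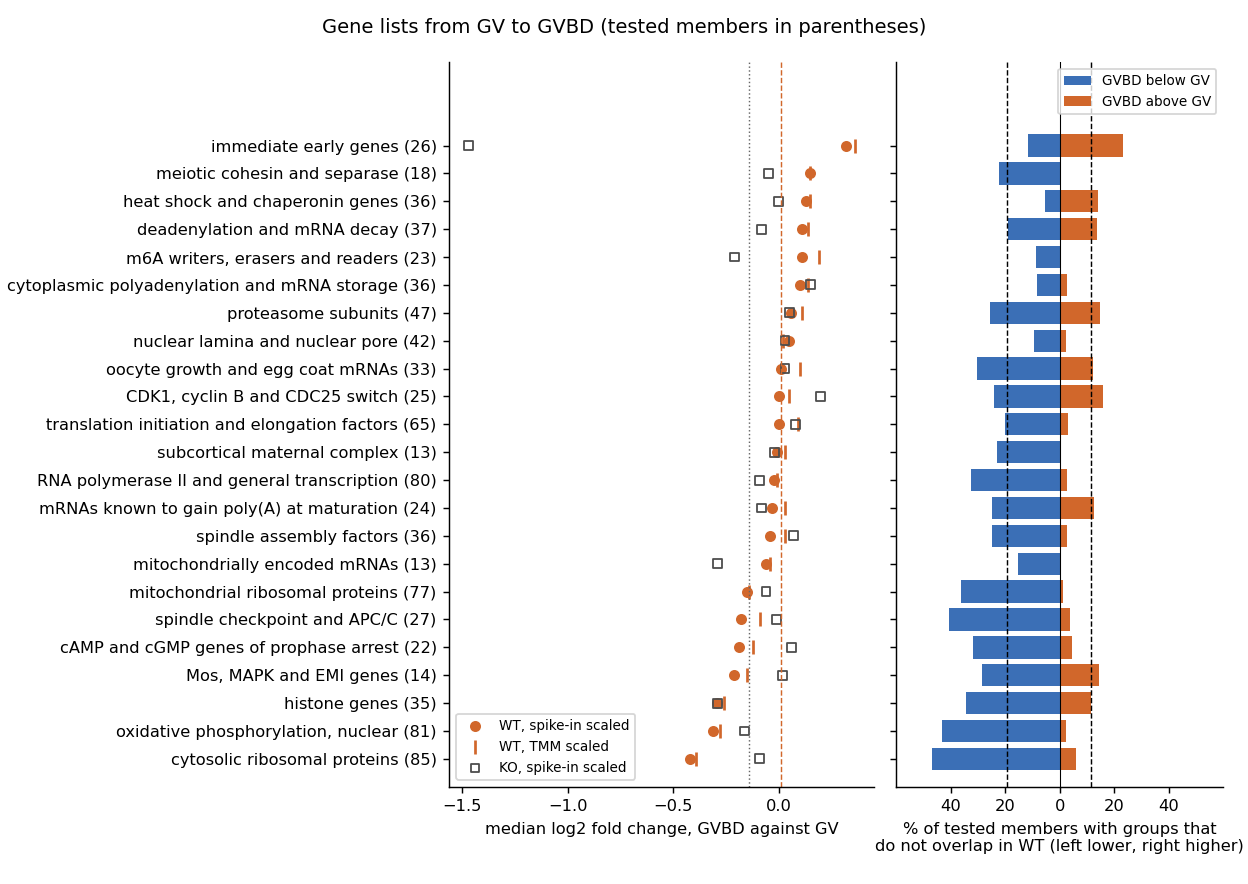
Median log2 fold change of GVBD against GV for 23 gene lists (left), filled circles for WT with spike-in scaling, ticks for WT with TMM scaling and open squares for KO, and the percent of tested members whose 2 stages did not overlap in WT (right). Dashed lines mark all tested genes in WT and the dotted line all genes in KO. Cytosolic ribosomal proteins (−0.42) and oxidative phosphorylation genes (−0.31) have the lowest WT medians, with 47.1% and 43.2% of members lower without overlap against 19.3% of all genes.

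These list values depended on which libraries entered. Relative to the median of all genes in a library, ribosomal protein genes stood at 0.11 and −0.11 log2 units in WT GV and at −0.29 and −0.49 in WT GVBD. Oxidative phosphorylation genes stood at 0.08 and −0.08 and then at −0.29 and −0.36. Both GVBD libraries were therefore below both WT GV libraries. In KO, however, the GV libraries already stood at −0.36 and −0.28 for ribosomal proteins and −0.30 and −0.12 for oxidative phosphorylation, and the KO GVBD libraries at −0.35 and −0.25 and at −0.33 and −0.24. The WT GV libraries, above all WT GV 1, were the high ones among these 8. Without WT GV 1, DESeq2 called 5 ribosomal protein, no oxidative phosphorylation and no mitochondrial ribosomal protein genes lower. Without WT GVBD 1 it called 32, 23 and 17. Without WT GVBD 2 the ribosomal protein median was 0.00, where that of all genes was 0.21, and it was −0.82 without WT GVBD 1, where all genes stood at −0.35.

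**Figure D4:**
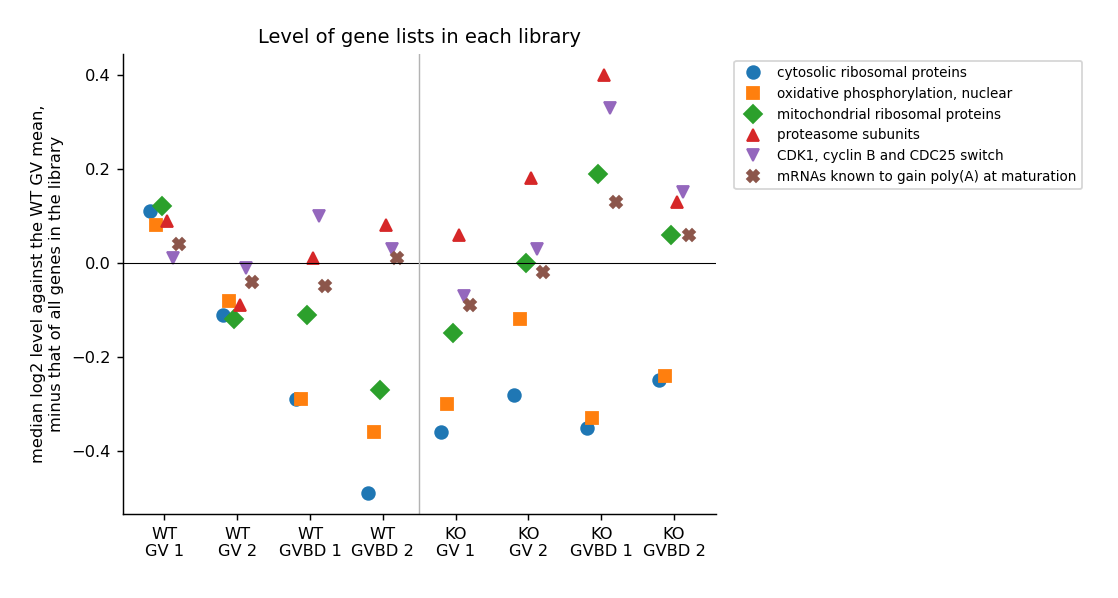
Median log2 level of 6 gene lists in each of the 8 GV and GVBD libraries, against the WT GV mean and after subtracting the median of all genes in that library. Ribosomal protein and oxidative phosphorylation genes stand lower in both WT GVBD libraries (−0.29 to −0.49) than in WT GV (−0.11 to 0.11), and all KO libraries of either stage lie between −0.12 and −0.36 for these lists.

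In KO no ribosomal protein gene was called by edgeR and 1 was lower by DESeq2, with 1 lower and none higher at an unadjusted edgeR p under 0.05. No oxidative phosphorylation gene was called by either tool in KO, with 2 lower at an unadjusted p. The KO medians were −0.09 and −0.16, near the −0.14 of all genes. For the difference itself edgeR called none of the 85 or the 81, with 17 and 15 at an unadjusted p under 0.05 (7.39% of all 21371 genes in that test), and DESeq2 called 4 of each list (1.16% of all genes).

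Transcript length moved with these calls. Among protein-coding genes, those lower by DESeq2 had a median transcript length of 1362 bases (198 genes), compared with 2870 for all 14542 with a transcript. Their median GC content was 55.3%, against 49.8%. Of the 198, 66 (33.3%) were shorter than 1000 bases, against 7.58% of all. Outside the ribosomal protein and oxidative phosphorylation lists the share was 26.2% of 168 genes. Among those with a mean scaled count of at least 50, the share lower by DESeq2 was 10.9% for genes under 500 bases, 7.28% from 500 to 1000 bases, 0.992% from 2000 to 4000 bases and 0.17% for those of 8000 bases and over. Median log2 fold changes over the same bins were −0.29, −0.19, 0.03 and 0.06. In KO, where few of these genes were called, they were −0.26, −0.21, −0.03 and −0.11. WT GV 1 also exceeded WT GV 2 by 0.25 log2 units in the shortest bin and lay 0.14 below it in the longest. The part of transcript length in the list results was not tested.

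RNA polymerase II and general transcription genes were lower by DESeq2 in 3 of 80 cases, *Polr2l*, *Med31* and *Med29*, at a list median of −0.02. *Polr2l*, a small subunit of the polymerase, read 16373 and 5625 in WT GV and 1604 and 1043 in WT GVBD (log2 −3.06 ± 0.57). *Med31*, of the Mediator complex, read 17170 and 11158 and then 4650 and 4074 (log2 −1.70 ± 0.38), and in WT MII it stood at 21003 and 14325. *Polr2g*, the most abundant member, read 84626 and 83190 and then 102766 and 63954. Of the 47 proteasome genes, *Psmb3*, *Psmb5* and the assembly chaperone *Psmg3* were lower by DESeq2 and *Psmb8*, a catalytic subunit of the immunoproteasome of immune cells, was higher (68.6 and 72.4, then 797 and 148). *Psmb3* read 21965 and 15025 and then 6286 and 4700 (log2 −1.75 ± 0.38). Proteasome degradation of cyclin B drives exit from the first division, yet the list median stood at 0.06. No gene of either list passed the edgeR test, with 9 and 6 lower and 0 and 3 higher at an unadjusted p under 0.05. The shares of all tested genes were 4.37% lower and 1.88% higher at that p, and 1.31% lower and 0.588% higher by DESeq2.

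The mRNAs of the switch that triggers resumption gave a single call. Of 25 genes around CDK1, cyclin B and CDC25, edgeR called none and DESeq2 called *Fzr1* alone. Without overlap, 4 members (16%) were higher and 6 (24%) lower, near the 11.3% and 19.3% of all tested genes. At an unadjusted edgeR p under 0.05, 3 were lower, where 4.37% of all tested genes were. *Ccnb1*, cyclin B1, read 38698 and 35913 in WT GV and 39123 and 39825 in WT GVBD. *Wee2*, the oocyte kinase that holds CDK1 inactive, read 18737 and 18222 and then 23739 and 18798. *Chek1* read 64520 and 60542 and then 74461 and 50353. *Arpp19*, an inhibitor of the phosphatase that opposes CDK1, read 21141 and 17963 and then 19387 and 8177. None of these 4 genes was called by either tool, although both GVBD libraries of *Ccnb1* and *Wee2* lay above both GV libraries. *Fzr1* encodes CDH1, the activator that keeps cyclin B1 low during arrest. It read 437 and 367 in WT GV and 129 and 116 in WT GVBD (log2 −1.71 ± 0.46, adjusted p = 0.371 by edgeR), and 464 and 480 and then 186 and 624 in KO. *Fzr1* was not called lower by DESeq2 once WT GV 1, WT GV 2 or WT GVBD 2 was left out.

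Genes of the cAMP and cGMP pathway of prophase arrest held no call among 22 by edgeR or DESeq2, with 2 lower at an unadjusted p under 0.05. *Rgs2*, a brake on G-protein signalling and the most abundant of them, read 127372 and 80697 in WT GV and 41454 and 49097 in WT GVBD. Both GVBD libraries lay below both GV libraries, and WT MII stood at 247500 and 149288. KO libraries read 142342 and 121467 at GV and 112639 and 105463 at GVBD. *Ywhaz* and *Ywhae* encode 14-3-3 proteins that hold CDC25B in the cytoplasm. They read 7330 and 7023, and 6577 and 7177, in WT GV and 9790 and 6413, and 10608 and 5765, in WT GVBD.

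The 14 Mos, MAPK and EMI genes, which act later to hold the egg at metaphase II, also held no call by either tool, with 2 lower at an unadjusted p under 0.05. *Mos*, the kinase at the head of this cascade, read 7184 and 5883 before breakdown, 2878 and 4246 after it and 10859 and 7838 by MII. *Mapk3* read 3484 and 2781, then 1501 and 1794, then 3669 and 2172, with its MII libraries on either side of the GV level.

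Of 27 spindle checkpoint and anaphase-promoting complex genes, *Fzr1* and *Anapc11* were lower by DESeq2 and none was called by edgeR. At an unadjusted edgeR p under 0.05, 6 were lower, where 4.37% of all tested genes were. Without overlap, 11 of 27 (40.7%) were lower, against 19.3% of all tested genes. *Anapc11*, the catalytic RING subunit of the complex, read 2013 and 1026 in WT GV and 524 and 506 in WT GVBD (log2 −1.56 ± 0.45, adjusted p = 0.424 by edgeR). *Mad2l1*, the checkpoint protein MAD2, read 26348 and 19970 and then 14258 and 7969, and stood at 32025 and 22611 in WT MII. Without WT GV 1 or WT GV 2, DESeq2 called no gene of this list. *Bub1b* read 12811 and 12501 and then 13990 and 8207, on both sides of its GV level. *Anapc15* read 7945 and 7903 and then 7766 and 5903.

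Spindle assembly factors (36 genes), meiotic cohesin and separase genes (18) and nuclear lamina and pore genes (42) held no call by edgeR or DESeq2, with 3, 1 and 0 lower genes and none higher at an unadjusted p under 0.05. *Aspm* read 45543 and 37970 in WT GV and 47968 and 44971 in WT GVBD, and *Aurkc*, the meiotic Aurora kinase, 18093 and 16250 and then 14327 and 18446. *Pttg1*, securin, was among the most abundant mRNAs of all at 182462 and 183255 and then 247597 and 164779. *Nup98*, a pore protein, read 8961 and 10421 and then 20174 and 7106. Its WT GVBD libraries lay on either side of the GV level.

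Stored mRNAs known to gain poly(A) tail during maturation include many that drive the later steps of meiosis. Of 24 such mRNAs, none was called by edgeR or DESeq2, 4 were lower at an unadjusted p under 0.05 and the median was −0.03. *Btg4*, which brings the CCR4-NOT deadenylase to maternal mRNAs, read 93163 and 100870 in WT GV and 116867 and 99953 in WT GVBD. *Cnot7*, a catalytic subunit of that deadenylase, read 25305 and 29594 and then 32802 and 22687. *Dnmt1*, the maintenance DNA methyltransferase, read 46490 and 35778 and then 21515 and 38079, with WT GVBD 1 and WT GVBD 2 at unlike levels. Relative to all genes in a library, the list stood at 0.04 and −0.04 before breakdown, −0.05 and 0.01 after it and 1.20 and 1.23 by MII.

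The element that recruits cytoplasmic polyadenylation factors, TTTTAT or TTTTAAT, was searched on the coding strand in the last 100 bases of each mRNA's main annotated transcript. It was present in 10 of the 24 mRNAs (41.7%) and in 18% of 14542 protein-coding genes. Windows of 30 bases around it are shown for the 4 most abundant members that hold it, to make the element visible. They come from GENCODE M21 transcripts (GRCm38), 5′ to 3′ with the element in capitals. They lie at chr9:51119801-51119830 (plus), chr9:20907235-20907264 (minus), chr8:40493036-40493065 (minus) and chr6:40466760-40466789 (plus).
Btg4: aaatccctTTTTATgtctttttaaaagttt
Dnmt1: tgatgtagTTTTATatgttgtaatatttct
Cnot7: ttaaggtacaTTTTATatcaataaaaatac
Wee2: ttaacataTTTTAATccagatcattgtaaa
Among genes lower by DESeq2 11.6% held the element, and among those higher 16.8%. None of the 4 mRNAs printed here was called at GVBD.

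Among oocyte growth and egg coat mRNAs, 2 of 33 were lower by DESeq2 and none was called by edgeR, with 4 lower at an unadjusted p under 0.05. The lower shares of all tested genes were 1.31% by DESeq2 and 4.37% at that p. *Ldhb*, lactate dehydrogenase B and one of the most abundant oocyte transcripts, read 354966 and 279509 before breakdown, 110381 and 78098 after it and 352734 and 235680 by MII. It was 3.37-fold lower at GVBD (log2 −1.75 ± 0.33, adjusted p = 0.163 by edgeR). *H1foo*, the oocyte linker histone, read 106111 and 65544, then 36932 and 27348, then 98311 and 73810 (log2 −1.42 ± 0.37, adjusted p = 0.334 by edgeR). In KO *Ldhb* read 255614 and 234328 and then 188677 and 230012, and *H1foo* 74746 and 68763 and then 74389 and 66376. The difference between genotypes was −1.52 ± 0.41 for *Ldhb* and −1.39 ± 0.45 for *H1foo* (adjusted p = 0.391 and 0.483 by edgeR). *Dppa3*, which protects maternal methylation, read 431004 and 492462 and then 552113 and 252305. The stages overlapped for *Omt2a* and *Omt2b*. Without WT GV 1 or WT GV 2, DESeq2 called neither *Ldhb* nor *H1foo*.

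The subcortical maternal complex, a protein lattice beneath the egg membrane, was lower by DESeq2 in 1 of 13 genes, *Ooep*. It read 370997 and 254890 before and 129793 and 98159 after breakdown, 2.75-fold lower (log2 −1.46 ± 0.33, adjusted p = 0.256 by edgeR), and stayed there in WT MII at 108184 and 73378. *Nlrp4a* read 42103 and 38742 and then 41767 and 38419, with the stages overlapping. They overlapped for *Nlrp4f* and *Nlrp9c* too. No member passed the edgeR test, with 1 lower at an unadjusted p under 0.05, and DESeq2 called none lower without WT GV 1 or WT GV 2.

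Of 36 cytoplasmic polyadenylation and storage genes DESeq2 called *Pabpn1l* alone and edgeR none, with 1 lower at an unadjusted p under 0.05. *Pabpn1l*, an oocyte poly(A)-binding protein that works with BTG4 in mRNA decay, read 11892 and 10257 in WT GV and 3815 and 4248 in WT GVBD (log2 −1.46 ± 0.35, adjusted p = 0.274 by edgeR). It read 7890 and 5781 in WT MII, and 17851 and 16850 and then 23720 and 14741 in KO. Without WT GV 1 or WT GV 2, DESeq2 did not call it. *Dazl*, a translational activator of stored mRNAs, read 7242 and 8041 and then 11227 and 7464, and *Eif4e*, the cap-binding factor, 13750 and 13370 and then 17993 and 13361. Deadenylation and decay genes (37), m6A writers, erasers and readers (23) and translation factors (65) held no call by edgeR or DESeq2, with 1, 0 and 4 lower genes at an unadjusted p under 0.05. *Cnot6l* read 3172 and 4295 and then 9652 and 2413, with the GVBD libraries on either side. *Hnrnpc* and *Wtap*, of the m6A group, read 24760 and 24228 and then 26140 and 19343, and 8112 and 10588 and then 18487 and 5817.

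Immediate early genes (26) and heat shock and chaperonin genes (36) held no call by edgeR or DESeq2, with 1 heat shock gene higher at an unadjusted p under 0.05. *Egr1* read 168 and 209 in WT GV and 249 and 201 in WT GVBD, and *Hsp90aa1* 234241 and 208652 and then 236993 and 192800. Immediate early genes stood at a WT median of 0.32 and a KO median of −1.47. The difference of that list between genotypes held no call by edgeR or DESeq2, with 5 genes at an unadjusted p under 0.05. Of all genes in that edgeR test, 7.39% were at such a p. Histone genes (35 of 102 could be tested) were lower by DESeq2 in 1 case, *H1foo*, with 3 lower at an unadjusted p under 0.05. *H3f3a* and *H3f3b*, which encode the same replication-independent histone, read 8013 and 7001, and 24824 and 25525, in WT GV and 12170 and 8719, and 21069 and 15865, in WT GVBD.

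Markers of other tissues differed between these libraries. Of all tested genes, 11.3% were higher without overlap and 0.588% were higher by DESeq2. Members with no counts in WT GV, such as *Krt14*, *Krt5* and *Krt1*, passed the filter on low counts through WT GVBD and had to differ. Keratinocyte markers were higher without overlap in 19 of 20 tested, with 9 higher by DESeq2 (*Krt14*, *Krt5*, *Krt1*, *Krt15*, *Flg*, *Sbsn*, *Lgals7*, *Sfn* and *Perp*), and 4, 6, 0 and 5 were so without WT GV 1, WT GV 2, WT GVBD 1 or WT GVBD 2. Heart and muscle markers were higher by DESeq2 in 4 of 26 (*Acta1*, *Myl1*, *Tnnt3* and *Tnni2*), although the summed level of the list was 42567 and 39898 in WT GV and 50563 and 33213 in WT GVBD. Most of that sum was *Tnni3* at 38168 and 28452 and then 36582 and 20615, a cardiac troponin gene that read 18296 to 23330 in the 4 KO libraries of these stages. By DESeq2, 3, 15, 0 and 3 muscle markers were higher without WT GV 1, WT GV 2, WT GVBD 1 or WT GVBD 2. Liver markers summed to 81.9 and 200 before breakdown and to 39828 and 165 after it, and *Alb*, at 18086 in WT GVBD 1, was its most abundant member. DESeq2 called *Alb* alone of the list, and 6, 8, 0 and 19 members higher without WT GV 1, WT GV 2, WT GVBD 1 or WT GVBD 2. *Ahsg*, another liver transcript, read 0 and 0 and then 2247 and 0. All marker counts without WT GVBD 1 come from the smaller set of genes that DESeq2 gave an adjusted p there.

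Blood and immune markers split the WT GV group. They summed to 3845 in WT GV 1 and 208317 in WT GV 2, to 147781 and 88340 in WT GVBD, to 154674 and 223210 in KO GV and to 2618 and 2628 in KO GVBD. *Hba-a1*, alpha globin, read 142 and 73182 and then 53562 and 30025. *Cd52*, a lymphocyte surface protein, was the member higher by DESeq2, at 742 and 324 and then 5709 and 2161 (log2 2.88 ± 0.62, adjusted p = 0.221 by edgeR). Without WT GV 2, which held the most globin RNA of the 4, 9 of the 25 were higher by DESeq2. Granulosa and cumulus markers, the cells most likely to adhere to an oocyte, summed to 6397 and 7870 in WT GV and 7926 and 6239 in WT GVBD. *Inha* was the member lower by DESeq2, at 50.9 and 162 and then 0 and 4.96, and *Cyp19a1* read 872 and 759 and then 983 and 769. The part of blood, muscle, liver or skin RNA in the higher genes was not tested.

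**Figure D5:**
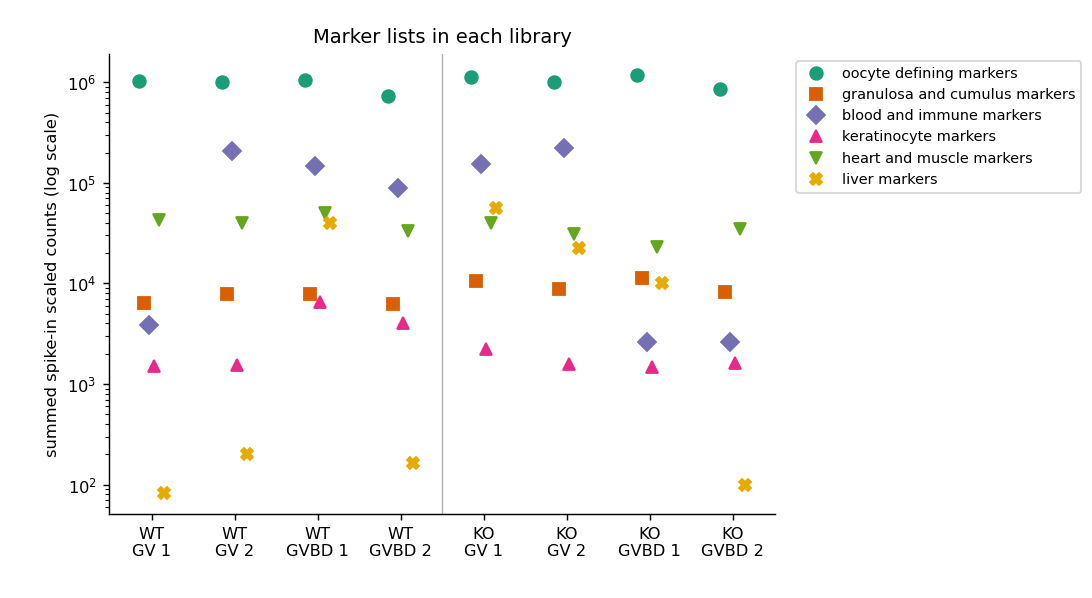
Summed spike-in scaled counts of 6 marker lists on a log axis in the 8 GV and GVBD libraries, 1 point per list and library. Oocyte markers stay between 736161 and 1187153, keratinocyte markers are highest in WT GVBD (6606 and 4034), and blood markers differ between WT GV 1 (3845) and WT GV 2 (208317).

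KO oocytes at the same stages share no library with the WT comparison. In the study most KO oocytes failed to reach GVBD, and its text does not say if pools were sorted by stage, so KO GVBD libraries may hold oocytes at the earlier stage. From KO GV to KO GVBD edgeR called 7 genes higher (0.0367% of 19064) and 35 lower (0.184%), and DESeq2 24 higher (0.126%) and 201 lower (1.05%). At an unadjusted edgeR p under 0.05, 1.32% were higher and 6.33% lower. None of the 42 edgeR calls was among the 10 in WT, of which 7 could be tested in KO. The median of all genes was −0.15, and −0.02 with TMM scaling. Blood and immune markers made up 8 of the 35 lower genes, and their sum was at least 154674 in KO GV and at most 2628 in KO GVBD.

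The difference between genotypes in the GV to GVBD change was called by edgeR for 2 genes (0.00936% of 21371) and by DESeq2 for 239 of 20542 (1.16%). *Mir7035* was 1, with a difference of −8.74 ± 0.82 log2 units (adjusted p = 0.0177 by edgeR), from the WT and KO values given above. The other, *4930548H24Rik* (ENSMUSG00000029138), was named after its values were seen. Its counts at GV were 1831 and 1540 in WT but 24 and 48 in KO, whereas at GVBD they were 2482 and 1840 in WT and 1279 and 1936 in KO, a difference of −5.13 ± 0.57 (adjusted p = 0.044 by edgeR). Both KO GV libraries stood far below the other 6 of these stages. Without KO GVBD 1 edgeR called no gene, with 1098 higher and 413 lower at an unadjusted p under 0.05, and without KO GV 2 it called 1 gene higher and neither of these.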

How the data were processed

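RNA from pools of oocytes was sequenced in 12 libraries. The authors deposited raw counts per gene, unnormalized, with 92 ERCC sequences in the same table. Per the submitters' processing notes, reads passed cutadapt 1.9, HISAT2 2.0.4 and StringTie 1.3.4d against mm10 (GRCm38). The annotation release, strand setting and counting step are not given in the sources used here. Counts were tested with edgeR 4.0.16 (quasi-likelihood, R 4.3.3), with library sizes proportional to ERCC counts, filterByExpr and Benjamini-Hochberg adjustment (threshold 0.05, absolute log2 fold change of at least 1), on the 4 WT libraries, the 4 KO libraries and, for the interaction, all 8. DESeq2 1.42.0 with ERCC size factors was an alternative, as were TMM and median-of-ratios scaling, other filters, the replicate block, larger fits and leaving out each library. The scripts were tested on simulated data. No columns were left unmapped. A counting interval was computed for *Mir7035* alone (exact Clopper-Pearson, 95%).

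Genes named were all edgeR calls, up to 10 DESeq2 calls per direction with the largest change (with an assigned name, a mean scaled count of at least 152, the median, and no overlap between stages), the 4 most abundant and all called members of each of 23 pathway lists, and the 3 most abundant of each of 6 marker lists. Called marker genes, *Rasa4* and *4930548H24Rik* were added after their values were seen. Members and lists were chosen with earlier results of these data known. Gene positions were from GENCODE M21 (52073 of 56691 genes, 91.9%). RNA was read through poly(A) priming per the methods, which can favour long tails. Some genes that the rule names are not reported here.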

Additional observations from a re-analysis of the deposited data

Results flagged for a closer look

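The GV to GVBD change differed between genotypes for 2 genes, by the edgeR test of the difference itself. For *Mir7035* the WT change minus the KO change was −8.74 log2 units. Both WT GVBD libraries held 1 count, and the 4 KO libraries of GV and GVBD held between 141 and 174 scaled counts. At MII its counts were 1 and 44 in WT and 204 and 1 in KO. For *4930548H24Rik* the same difference was −5.13, with 24 and 48 counts in the KO GV libraries and at least 1279 in the other 6 libraries of GV and GVBD. The part of any single library in these results is given by the calls without it: neither gene was called without KO GVBD 1 or without KO GV 2.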

How the results depend on the processing

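For WT GVBD against WT GV, edgeR called 10 genes, and 3 with TMM, 3 with median-of-ratios scaling, 528 with no filter on low counts, 157 with at least 10 counts in every library, 371 by DESeq2, 100 in a fit of the 6 WT libraries and 5 in a fit of all 12. For KO the 42 calls became 18 with TMM, 18 with median-of-ratios scaling, 516 with no filter, 125 with at least 10 counts, 225 by DESeq2 and 1 with all 12 libraries. The 2 interaction calls became 635 with no filter, 77 with at least 10 counts and 239 by DESeq2. With single libraries left out, counts ranged from 0 to 629 (WT), 7 to 888 (KO), 0 to 88 (interaction) and 116 to 667 (WT by DESeq2, chosen after seeing the data). The endogenous ratio of 0.921 was 1.01 as a median over genes, which reversed it, and 0.739 to 1.1 with a library left out. Replicate numbers were not shown to pair libraries (r = 0.14 in WT and −0.03 in KO for same-numbered deviations, with 2 pairs each), and with the replicate block edgeR called 182 genes in WT, 16 in KO and 0 for the interaction (876 higher and 646 lower at an unadjusted p under 0.05, and 239 by DESeq2 without the block). The causes were not tested. Of 1141 alternatives for 83 named genes, 803 kept their side of the threshold, 40 lost a call, 298 gained one and 0 changed direction. These genes were included because edgeR or DESeq2 called them, and the stages of every called gene did not overlap. Leaving out a library could therefore not reverse their direction, so the 0 does not measure how firm it is. With a lone library in a group, its spread was taken from the other group.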
